A study of Homo sapiens with 3 samples.

Results

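The arms of human chromosome 20 were described by the H3K27me3 peaks that lie on them in U2OS cells, a human osteosarcoma line, on the T2T-CHM13 assembly. The short arm was taken from 0 to 26.9 Mb and the long arm from 29.1 Mb to the last peak end at 66210085. These limits leave out the centromeric stretch between them. The arms held 5276 of the 181157 control peaks and 2638 of the 105729 siORCA peaks. Within the long arm, a 1 Mb block (32 to 33 Mb) and a 2 Mb block (43 to 45 Mb) were set apart. Both were chosen by the difference in covered length between these same lists, so their coverage, widths, folds and shared bases are given as descriptions.

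All 3 libraries were from U2OS cells of the same labelled batch, with 1 library per condition. Control cells were transfected with Gl3 and the other cells with siORCA, and an input made up the third library. ORCA is a partner of the origin recognition complex, the complex that marks replication origins, and the title of the series ties it to the stability of Polycomb complexes. No difference below could be tested between conditions, since neither has a second library, and no input values were analysed here.

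H3K27me3 is trimethylation of lysine 27 of histone H3, set by the Polycomb repressive complex PRC2. The methyltransferase subunit of PRC2 adds the mark, and another subunit binds it, which lets the mark spread along neighbouring nucleosomes into broad domains. PRC1 complexes read the mark, and domains of it typically lie over repressed developmental genes. No gene is named here, because the annotation at hand is for another assembly, and positions were not carried over.

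The arms of chromosome 20 carried less peak length after siORCA. Control peaks covered 6.98 Mb (10.9% of the arms) and siORCA peaks 1.57 Mb (2.45%), a ratio of 0.224 (siORCA to control, as in all ratios below). Over all chromosomes the ratio was 0.447, and over all chromosomes but 20 it was 0.451. Those values include centromeric stretches. The stretch left out between the arms held 0.945 Mb under control peaks and 1.18 Mb under siORCA peaks, and with it the ratio of chromosome 20 was 0.347. That was the seventh lowest of 23 chromosomes, after chromosome 19 with the lowest (0.254). Whether the arms of chromosome 20 differ from those of other chromosomes could not be tested. The labels give no read depth, and its part in the lower coverage was not tested.

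The limits of the arms cut through marked sequence. The last 100 kb inside the short arm held 71.8 kb under control peaks and 55.4 kb under siORCA peaks, and the next 100 kb, outside it, held 39.9 and 33.7 kb. On the other side, the last 100 kb outside the long arm held 41.5 and 46.02 kb, and the initial 100 kb inside it held 15.9 and 19.9 kb. No peak of either list crossed a limit.

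The long arm was more densely marked than the short arm in both lists, and both arms had nearly the same ratio. On the short arm, 1994 control peaks covered 1.82 Mb (6.75%) and 752 siORCA peaks covered 0.419 Mb (1.56%), a ratio of 0.230. On the long arm, 3282 control peaks covered 5.17 Mb (13.9%) and 1886 siORCA peaks covered 1.15 Mb (3.10%), a ratio of 0.222. Part of the difference in control coverage lay in the blocks, since control peaks covered 9.68% of the long arm without them and siORCA peaks 2.53%. The ratios of the arms moved apart under other limits. Keeping only peaks whose deposited fold was 3 or higher, they were 0.635 on the short arm and 0.395 on the long arm. That limit kept 577 of 1816 kb of the short arm's control length and 367 of 419 kb of its siORCA length. On the long arm it kept 2578 of 5165 kb and 1018 of 1149 kb. With a −log10 q of at least 2 the ratios were 0.173 and 0.105.

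The near-equal ratios of the arms depended on sequence beside the centromere. The innermost 1 Mb of the short arm held 18.3% of that arm's control peak length but 47.6% of its siORCA peak length, with 0.332 Mb under control peaks and 0.199 Mb under siORCA peaks. Without it, control peaks covered 1.48 Mb (5.73%) of the short arm and siORCA peaks 0.219 Mb (0.847%), and the ratio fell to 0.148. The innermost stretch of the long arm, from its start to 32 Mb, had 0.813 Mb under control peaks, 0.237 Mb under siORCA peaks and a ratio of 0.292. From 33 Mb on, without the 2 Mb block, the long arm kept a ratio of 0.251 (2.49 Mb and 0.625 Mb). With the outermost and innermost 1 Mb of each arm left out, the ratios were 0.143 on the short arm and 0.204 on the long arm, so the order of the arms turned.

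**Figure D1:**
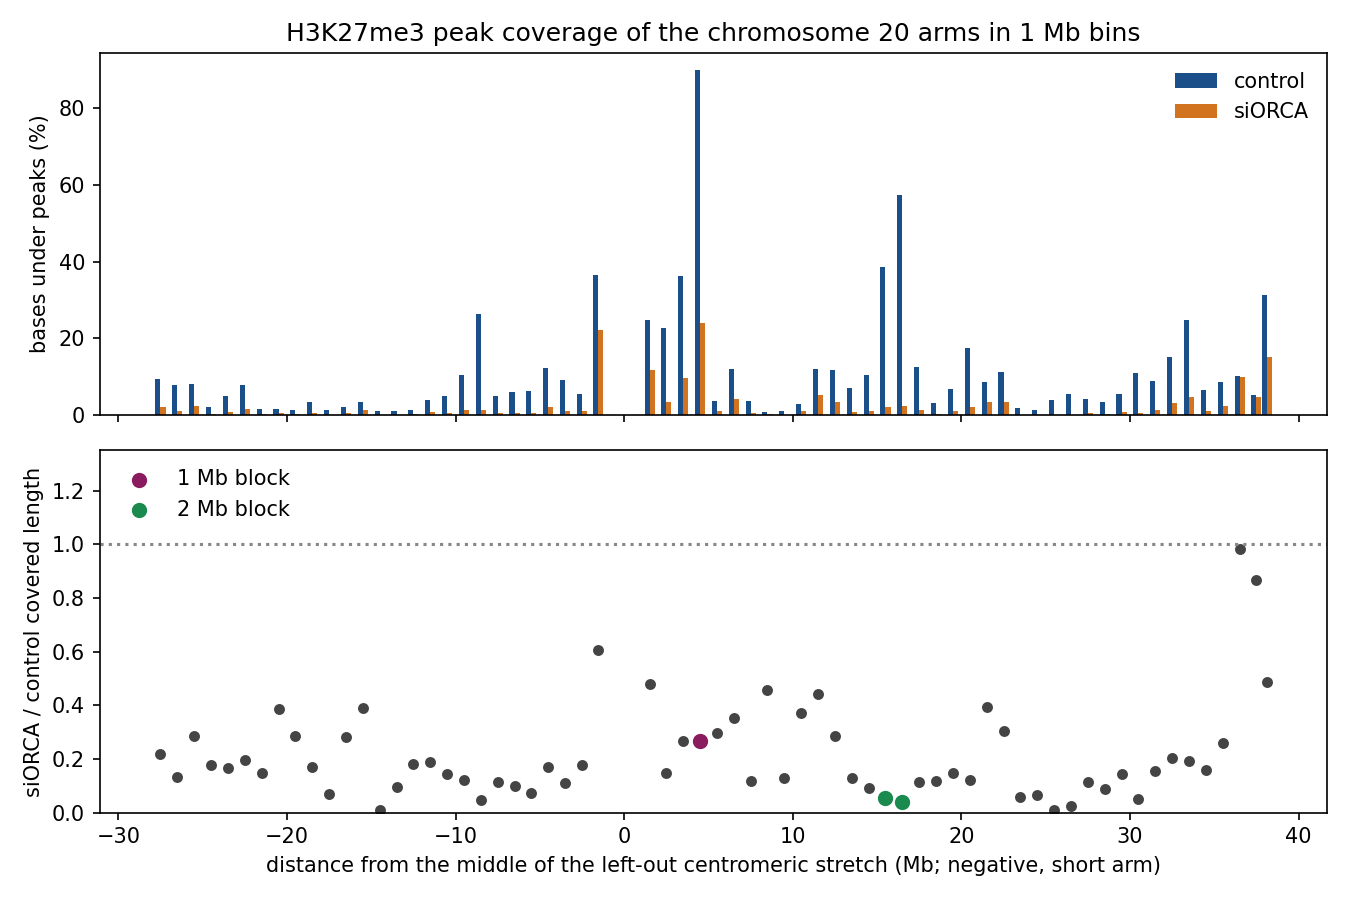
Upper panel, percent of the bases of each 1 Mb bin under H3K27me3 peaks in the control (blue) and siORCA (orange) library, 1 library each, against the distance in Mb from the middle of the left-out centromeric stretch; lower panel, ratio of siORCA to control covered length, with the dotted line at equality. Control coverage peaks in the 1 Mb block (90.0%) and the 2 Mb block, and the ratio comes near 1 only close to the end of the long arm (0.981).

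In 1 Mb bins, control coverage was above siORCA coverage everywhere on both arms. On the short arm the 27 bins ran from 1.17% to 36.5% in the control with a median of 4.96%, and from 0.0129% to 22.1% in siORCA with a median of 0.693%. On the long arm outside the blocks, the 35 bins ran from 0.716% to 36.3% in the control with a median of 8.66%, and from 0.0443% to 15.3% in siORCA with a median of 1.10%. The ranges of the lists overlapped on each arm, while within each bin the siORCA value was the lower one. A bin with at least 5% control coverage was counted as low where siORCA covered at most 0.25 times as much. Over all chromosomes 59.8% of such 1 Mb bins were low, against 10 of 12 on the short arm and 15 of 27 on the long arm. In 100 kb bins, 64.2% were low over all chromosomes, 69 of 93 on the short arm and 138 of 187 on the long arm. The median ratio of the 1 Mb bins with at least 5% control coverage was 0.186 over all chromosomes, 0.150 on the short arm and 0.191 on the long arm, and both arm medians lay between the quartiles over all chromosomes (0.0938 and 0.442).

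The 1 Mb block held the longest control peaks of the arms, and siORCA called many short peaks inside them. Between 32 and 33 Mb, 111 control peaks covered 0.900 Mb (90.0% of the block) and 368 siORCA peaks covered 0.241 Mb (24.1%). The number of peaks was therefore higher in siORCA, by a ratio of 3.32, while the covered length was lower, by a ratio of 0.268. Control peaks had a median width of 1114 bp (quartiles 454 and 5088 bp), siORCA peaks of 404 bp (198 and 809 bp). The 28 control peaks of 5 kb and wider made up 89.6% of the control length in the block, and the widest siORCA peak measured 5.26 kb.

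The longest control peak of the arms ran over 136.7 kb, from 32247447 to 32384143 on chromosome 20, with a deposited fold of 3.16. What the caller set this fold against is not recorded in the labels or headers. It held the midpoints of 67 siORCA peaks, which with those at its edges covered 54.0% of it. The second, from 32090992 to 32226915 (135.9 kb, fold 3.24), held 55 siORCA peaks and was covered over 32.3%. The third, from 32509616 to 32611640 (102025 bp, fold 3.19), held 39 and was covered over 18.6%. Covered shares thus differed among control peaks of like fold. The fourth peak, of 72.2 kb, was covered over 20.6% and the fifth, of 47.9 kb, over 9.89%.

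Joining peaks at most 3 kb apart turned most of this block into one control domain, from 32088436 to 32972846 (884.4 kb), of which control peaks covered 92.8% and siORCA peaks 26.6%. In siORCA the same joining left 70 pieces, 4 of them at least 20 kb long. The longest siORCA piece, also the longest on the long arm, ran from 32232042 to 32369902 (137.9 kb) and was covered over 61.3% by 71 siORCA peaks. Along the block, every one of the 10 bins of 100 kb was covered less in siORCA. Control coverage ran from 65.5% to 100% and siORCA coverage from 5.37% to 48.3%. The siORCA coverage was highest from 32.2 to 32.3 Mb (48.3 kb) and lowest from 32.9 to 33 Mb (5.37 kb). The block ended sharply on its outer side: 81.0 kb was covered in the control from 32.9 to 33 Mb, 19.5 kb from 33 to 33.1 Mb and 5.95 kb in the next 100 kb. On its inner side control coverage went on, with 58.1 kb in the control but 4.93 kb in siORCA from 31.9 to 32 Mb. Further in, from 31.8 to 31.9 Mb, these lengths were 61.2 and 51.1 kb.

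The 2 Mb block was broadly marked in the control and sparsely covered in siORCA. Between 43 and 45 Mb, 540 control peaks covered 0.963 Mb (48.1%) and 124 siORCA peaks covered 0.0448 Mb (2.24%), a ratio of 0.0466. The median widths were 860 bp (quartiles 408 and 1930 bp) for control peaks and 320 bp (170 and 442 bp) for siORCA peaks. Only 4 siORCA peaks were at least 1 kb wide, against 237 control peaks. With peaks of at least 1 kb in both lists the ratio was 0.0074, and with a −log10 q of at least 2 it was 0.0079. Moving the limits of the block by 0.5 Mb to either side left it at 0.0462 and 0.0461.

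The longest control peak there ran from 43883055 to 43918216 (35.2 kb, fold 3.18), and 9.41% of it was covered by siORCA peaks. The next, from 43818930 to 43842630 (23.7 kb, fold 3.07), was covered over 8.61%, and the following 3, of 14.1 to 15.7 kb, over 0.650% to 5.62%. The siORCA peaks were scattered: the widest, from 43941769 to 43943908, measured 2.14 kb, with a fold of 3.36, and 96.9% of it was also covered in the control. Next in width came 1 of 1.32 kb, from 44979561 to 44980877, of which 3.34% was shared. The other siORCA peaks of at least 1 kb measured 1.32 and 1.27 kb and were shared over 78.6% and 100%.

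Joined at gaps of up to 3 kb, the control peaks of the 2 Mb block gave 35 pieces, 11 of them at least 20 kb long and 1254 kb in all. The siORCA peaks gave 84 pieces, and 0 reached 20 kb. Large control domains of similar size followed each other: from 43641444 to 43920070 (278.6 kb), from 43927924 to 44212590 (284.7 kb) and from 44340063 to 44623021 (283.0 kb). Control peaks covered 83.9%, 64.4% and 70.3% of them, and siORCA peaks 4.04%, 2.64% and 1.98%. The marked sequence did not fill the block. A gap of 298.0 kb without a control peak ran from 43019847 to 43317879, and coverage went on past the end of the block, with 47.7 kb from 45 to 45.1 Mb. In 100 kb bins, control coverage ran from 0% to 90.2% with a median of 55.6%, and siORCA coverage from 0% to 8.93% with a median of 1.69%. All 17 bins with at least 5% control coverage were low in siORCA, against 64.2% over all chromosomes and 6 of 10 in the 1 Mb block. Nothing is read from these counts, since coverage chose the blocks.

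**Figure D2:**
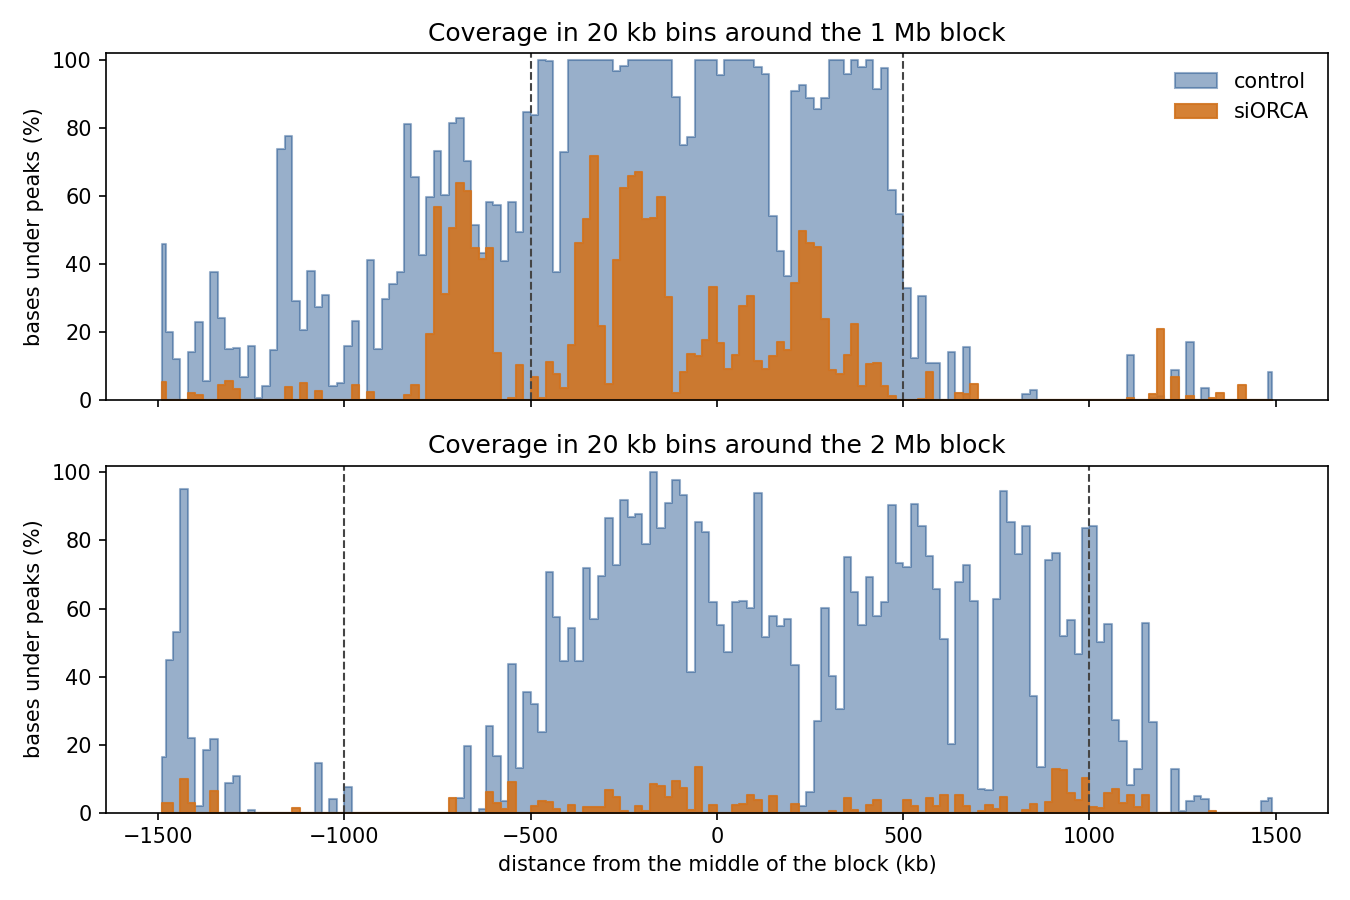
Percent of the bases of each 20 kb bin under H3K27me3 peaks in the control (blue) and siORCA (orange, drawn in front) library, against the distance in kb from the middle of the 1 Mb block (upper panel) and of the 2 Mb block (lower panel); dashed lines mark the block limits. In the upper panel siORCA peaks stand in clusters under a nearly closed control domain of 884.4 kb, and in the lower panel siORCA coverage stays low under 3 control domains of 278.6 to 284.7 kb.

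Against the rest of the long arm, the blocks stood apart in different ways. The rest had 3.30 Mb under control peaks and 0.862 Mb under siORCA peaks, a ratio of 0.261, close to the 0.268 of the 1 Mb block and above the 0.0466 of the 2 Mb block. The 2 Mb block stayed below the rest under each limit tried: 0.0577 against 0.605 for folds of 3 and higher, 0.0079 against 0.156 with a −log10 q of at least 2, 0.0074 against 0.159 with peaks of at least 1 kb, and 0.0533 against 0.336 with equal numbers of peaks. The order of the 1 Mb block and the rest turned: 0.270 against 0.605 for folds of 3 and higher, 0.0583 against 0.156 with the limit on q, and 0.273 against 0.336 with equal numbers. In the rest, the limit of 3 on fold kept 1279 of 3303 kb in the control and 774 of 862 kb in siORCA. In the 1 Mb block it kept 800 of 900 kb and 215 of 241 kb. Moving the limits of the 1 Mb block by 0.5 Mb gave ratios of 0.339 to the left and 0.200 to the right. These lay above and below the 0.261 of the rest. Both blocks were chosen by covered length in these same lists, so their place under these limits is a description and no independent support. The ratio of the 2 Mb block was not the lowest on the arms. Outside it, 2 long-arm bins had a lower one, from 53 to 54 Mb (39.4 kb in the control, 0.443 kb in siORCA) and from 54 to 55 Mb (55.9 and 1.41 kb). On the short arm the bin from 13 to 14 Mb was lower (11.7 and 0.129 kb), and the bin from 19 to 20 Mb had nearly the same ratio, 0.0481, with 263.3 kb in the control and 12.7 kb in siORCA. Of the bins covered over at least 20% in the control outside the 2 Mb block, that bin had the lowest ratio on the arms.

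**Figure D3:**
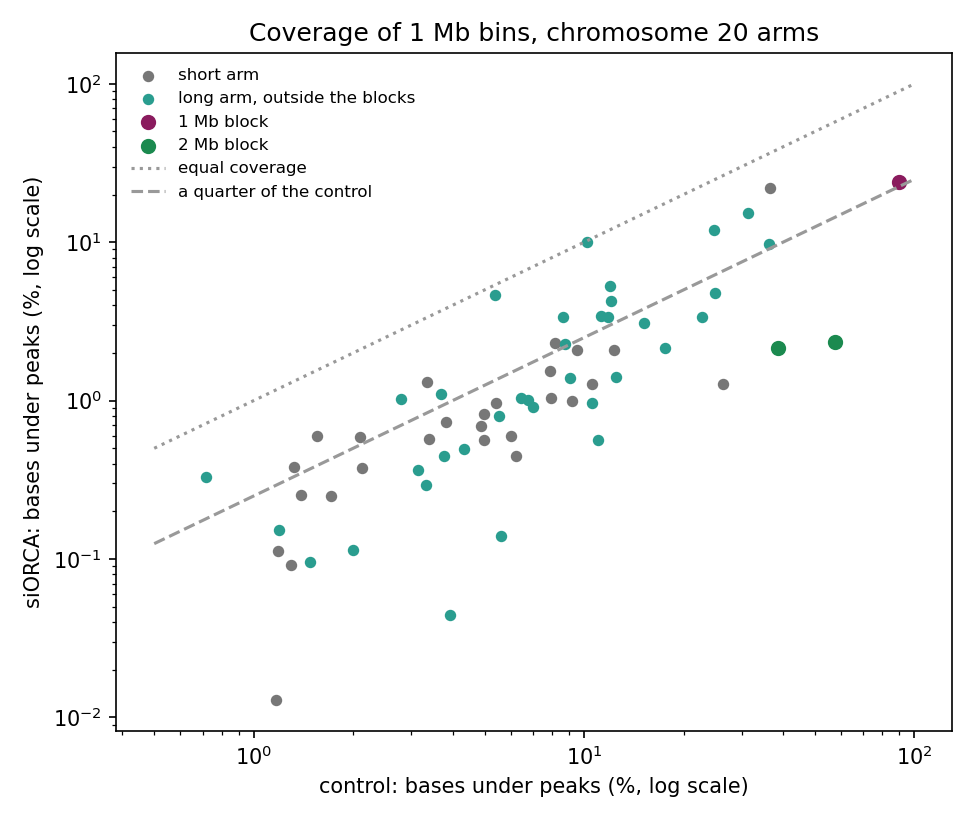
Percent of the bases of each 1 Mb bin under H3K27me3 peaks in siORCA against the control, both on log scales, for the short arm, the long arm outside the blocks and the bins of the blocks; the dotted line marks equal coverage and the dashed line 0.25 times the control. The bins of the 2 Mb block (38.8% and 57.5% in the control, 2.15% and 2.33% in siORCA) and the bin from 19 to 20 Mb of the short arm lie far below the dashed line at high control coverage, and the 1 Mb block lies just above it.

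Peaks were shorter in siORCA outside the blocks as well. Control and siORCA peaks had median widths of 521 and 372 bp on the short arm, and of 550 and 377 bp on the long arm without the blocks, against 515 and 414 bp over the whole lists. Peaks of at least 1 kb held 66.2% of the control length and 46.2% of the siORCA length on the short arm. Outside the blocks on the long arm these shares were 77.7% and 47.2%. The longest siORCA peaks of the arms lay outside both blocks. They ran from 50269152 to 50285735 (16.6 kb, fold 4.33, 97.8% shared with the control), from 64840022 to 64850801 (10.8 kb, fold 4.35, 92.5% shared) and from 40425862 to 40434826 (8.96 kb, fold 4.40, 100% shared). On the short arm the longest siORCA peak ran from 26808867 to 26813574 (4.71 kb, fold 3.96). The longest control peak there, from 26843669 to 26859916 (16.2 kb, fold 2.97), also lay in the innermost 1 Mb.

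Within the control list, the 1 Mb block had higher folds than the rest of the long arm. Its median fold was 2.97 (quartiles 2.77 and 3.10), against 2.84 (2.70 and 3.01) in the 2 Mb block, 2.65 (2.51 and 2.84) in the rest of the long arm and 2.76 (2.63 and 2.94) on the short arm. The whole control list had 2.73 (2.58 and 2.95). In the siORCA list the medians were 3.23 in the 1 Mb block, 3.11 in the 2 Mb block, 3.23 in the rest of the long arm and 3.26 on the short arm, against 3.29 in the whole list. The quartile ranges of these regions overlapped in each list. Folds are not compared between lists, and the limit of 3 on fold used above removed unlike parts of them. Neither block held the strongest peaks. The highest control folds among peaks of at least 1 kb lay near the end of the long arm, at 5.10 (64942798 to 64953938), 4.88 (65189647 to 65201691) and 4.56 (64874830 to 64888259), and siORCA peaks covered 93.4%, 60.4% and 87.0% of them. In siORCA the highest were 5.59 (64831995 to 64839073), 5.43 (64829433 to 64831594) and 5.27 (63734237 to 63737902), of which 76.2%, 0% and 63.9% was shared.

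Covered lengths were more nearly equal close to the end of the long arm. From 64 Mb on, 130 control peaks covered 0.222 Mb and 201 siORCA peaks covered 0.179 Mb, a ratio of 0.806, and 48.9% of the control length there was also covered in siORCA. This stretch held 4.30% of the control length of the long arm and 15.6% of its siORCA length. By bin, the ratio was 0.981 from 64 to 65 Mb, 0.868 from 65 to 66 Mb and 0.486 from 66 Mb to the last peak end. Bins of 100 kb with at least as much siORCA as control coverage, among those with at least 5% in the control, made up 7.69% over all chromosomes. The same held for 5.93% of 1 Mb bins there, against 0 of 12 on the short arm and 0 of 27 on the long arm. Of 100 kb bins there were 8 of 187 on the long arm and 1 of 93 on the short arm. On the long arm 3 of them lay between 64.8 and 65.3 Mb, 4 between 29.1 and 30.8 Mb, and 1 from 49.6 to 49.7 Mb. The limit of 5% was set on the control only, so it left out bins with little control and more siORCA coverage. One of those ran from 33.6 to 33.7 Mb, with 2.99 kb in the control and 4.61 kb in siORCA. The counts and places given here therefore hold only for bins above that limit. In contrast, from 51 to 59 Mb the control covered 0.372 Mb and siORCA 0.0254 Mb, a ratio of 0.0683.

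Most siORCA peak length on the arms fell on bases that were also covered in the control, while most control length was not covered in siORCA. On the short arm 65.1% of the siORCA length and 15.01% of the control length was shared, and on the long arm 70.8% and 15.7%. Over all chromosomes, centromeric stretches included, these shares were 71.2% and 31.9%. The siORCA shares of the arms were thus no higher than over all chromosomes, and their control shares were lower. This sets arms against whole chromosomes. The stretch left out between the arms shared 77.1% of its control length, and with it chromosome 20 shared 22.9%. Chromosome 19 as a whole shared 18.3%, so a low control share was not particular to these arms. In the 1 Mb block 96.1% of the siORCA length was shared, where control peaks covered 90.0% of all bases. The same share in the 2 Mb block was 79.5%, where control peaks covered 48.1% of all bases. Of the control length, 25.8% was shared in the 1 Mb block, 3.70% in the 2 Mb block and 16.5% in the rest of the long arm. By number, 358 of 368 siORCA peaks in the 1 Mb block touched a control peak and 334 lay wholly inside one. In the 2 Mb block 109 of 124 touched one and 93 lay wholly inside. In the rest of the long arm these counts were 900 of 1394 and 591. Such counts were not made over the whole lists, and nothing is read from them. For folds of 3 and higher the shared part of the siORCA length was 26.5% on the short arm, 50.2% on the long arm, 88.8% in the 1 Mb block and 67.1% in the 2 Mb block.

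The 2 Mb block had the lowest share of control peaks touched by a siORCA peak at every width. A wider peak is more likely to meet another by at least 1 base, so shares are compared between regions within a width class and not between classes. Intervals here are 95% Wilson intervals, which cover counting error only and treat neighbouring peaks as independent. Of control peaks of 5 kb and wider, 28 of 43 in the 2 Mb block were touched (65.1%, 50.2 to 77.6%), against 26 of 28 in the 1 Mb block (92.9%, 77.4 to 98.0%) and 105 of 124 in the rest of the long arm (84.7%, 77.3 to 90.0%). From 1 to 2 kb, 10 of 109 (9.17%) were touched in the 2 Mb block, 14 of 18 (77.8%) in the 1 Mb block and 122 of 435 (28.0%) in the rest. By length, 5.82% of the length of peaks of 5 kb and wider was shared in the 2 Mb block, 26.5% in the 1 Mb block and 27.5% in the rest. The class of 5 kb and wider has no upper limit, so its peaks are not matched in width between regions. The widest measured 35.2 kb in the 2 Mb block, 136.7 kb in the 1 Mb block and 32.3 kb in the rest. Control peaks of like fold also differed. At a fold of 3 to 3.5, 5.60% of the length was shared in the 2 Mb block, 26.6% in the 1 Mb block and 18.3% in the rest of the long arm. Width and fold were not separated from each other, and no such shares were counted over the whole lists. The blocks were picked for their coverage in these lists, so low shares in the 2 Mb block follow in part from that choice. None of these differences was tested, and the intervals are no support for them.

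**Figure D4:**
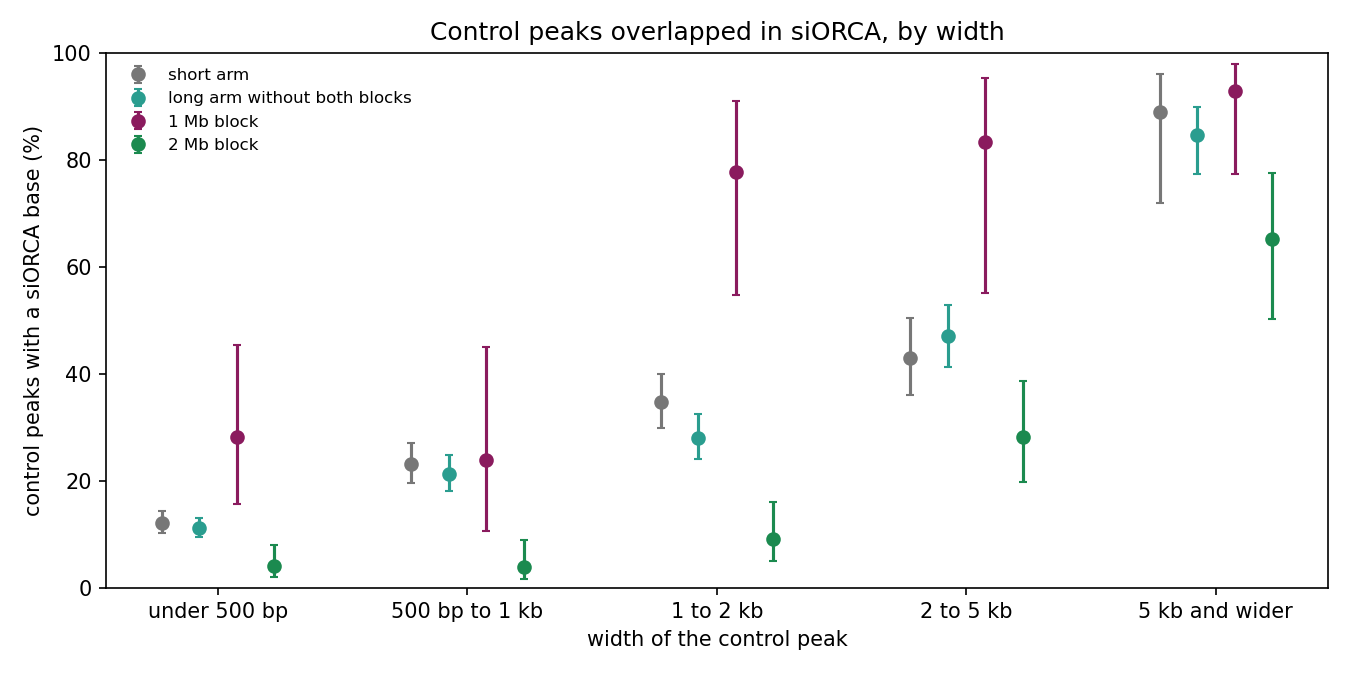
Percent of control peaks with at least 1 base under a siORCA peak, by width of the control peak, for the short arm, the long arm without both blocks and the blocks; points are the shares and bars their 95% Wilson intervals, which cover counting error only. Within each width class the 2 Mb block has the lowest point, 65.1% at 5 kb and wider, but this block was chosen by its coverage in these lists. The rise with width is expected from the count itself.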

How the data were processed

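H3K27me3 ChIP from control and siORCA cells gave 1 broadPeak list each, and the input has no values here. Per the submitters' processing notes, bcl2fastq, Trimmomatic, Bowtie2, SAMtools and T2T-CHM13 were used, and no versions are listed. The peak caller, its settings and the handling of multiply aligned reads are not recorded in the labels or headers. The authors' deposited fold ratio (column 7), −log10 p, −log10 q and score of each peak were used as they stand, only to describe or filter peaks; the score was not analysed. Neither list holds a −log10 q below 1.00.

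Covered length is the merged peak length clipped to a region, and peaks were counted where their midpoint lies. Python 3.11.15, NumPy 2.4.6, pandas 2.3.3, SciPy 1.17.1 and matplotlib 3.10.9 were used. Overlap code was tested on simulated data, where 0 of 20 sets differed from a base-by-base count. Regions and lists were chosen with earlier results of these data known. Named were the blocks, the longest and strongest peaks of at least 1 kb, and the longest joined domains. Bins with the highest control coverage or with siORCA at least equal were named as well. The bins at 13, 19, 51 to 59, 53, 54 and 64 Mb were chosen after their values were seen. So were the limits at 46 and 62 Mb of the stretches compared by fold. Alternatives were limits on q, fold, peak number and width, and moved region limits. Coordinates are printed from 1.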

Additional observations from a re-analysis of the deposited data

How the results depend on the processing

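All 5 ratios of covered length stayed below 1 under each alternative run. The blocks were chosen by covered length in these lists, so the alternatives give no independent support for their ratios. With a single library on each side, none could be omitted. No paired analysis was possible because the conditions have 1 library each. Of 27 alternative ratios, 15 stayed within 1.5 times the main value. With a −log10 q of at least 2 the ratio was 0.105 on the long arm, 0.0583 in the 1 Mb block, 0.0079 in the 2 Mb block and 0.156 in the rest of the long arm. With a fold of at least 3 it was 0.635 on the short arm, 0.395 on the long arm and 0.605 in the rest. With peaks of at least 1 kb it was 0.129 on the long arm, 0.154 in the 1 Mb block, 0.0074 in the 2 Mb block and 0.159 in the rest. Without its ends the short arm had 0.143. The start at 33 Mb, chosen after seeing the data, gave 0.251 for the rest.

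Shares of peaks and shares of length count different things and are not compared as stability. The regions follow in the order short arm, long arm, 1 Mb block, 2 Mb block and rest of the long arm. Shares by number were not counted over the whole lists. The share by 1 bp also depends on peak width, so regions are not compared by it here. Of control peaks by number, 22.4, 23.0, 57.7, 13.7 and 23.4% were overlapped by 1 bp, and 10.3, 6.95, 11.7, 0.926 and 7.98% for an overlap of 50% of the peak. With a −log10 q of at least 2 the shared part of the control length was 9.22, 6.71, 5.55, 0.325 and 9.26%. With a fold of at least 3 it was 16.8, 19.8, 23.9, 3.87 and 23.5%. Of siORCA peaks by number, 67.2, 72.5, 97.3, 87.9 and 64.6% were overlapped by 1 bp, and 54.3, 63.1, 94.6, 81.5 and 53.2% over 50% of the peak. The shared part of the siORCA length was 53.4, 64.2, 95.2, 41.1 and 59.4% with the limit on q, and 26.5, 50.2, 88.8, 67.1 and 38.8% with the limit on fold. Limits on q and fold act on lists with different median folds, and the cause of these moves was not tested. No depth was given, so a region without siORCA peaks was not shown to lack the mark.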

Other observations

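The deposited folds of the control list varied along the long arm, a pattern seen in the values and not tested. The limits at 46, 62 and 64 Mb were set after the values were seen, so differences between the stretches depend on that choice. From 29.1 to 32 Mb the median was 2.62 over 758 peaks. From 33 to 46 Mb the median of 1123 control peaks was 2.79 (quartiles 2.64 and 2.97). Of these peaks, 540 lay in the 2 Mb block, which had a median of 2.84. From 46 to 62 Mb the median was 2.59 (2.46 and 2.80) over 1027 peaks, and from 62 to 64 Mb 2.80 (2.65 and 2.94) over 133 peaks. From 64 Mb on the median was 2.66 (2.53 and 3.02) over 130 peaks. By 1 Mb bin, the medians ran from 2.59 to 2.85 from 33 to 46 Mb, from 2.54 to 2.69 from 46 to 62 Mb and from 2.79 to 2.82 from 62 to 64 Mb, so the ranges of the 33 to 46 Mb and 46 to 62 Mb stretches overlap. The siORCA medians were 3.24 from 29.1 to 32 Mb, 3.16, 3.24 and 3.20 in the 3 stretches from 33 to 64 Mb, and 3.25 from 64 Mb on. The quartile ranges of the 3 stretches from 33 to 64 Mb overlap in both lists.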
